A study of Mus musculus with 26 samples.

Results

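Skeletal muscle genes were examined in mouse inguinal fat, a subcutaneous white depot that lies next to muscle of the thigh and trunk. The 39 genes were those of the contractile apparatus, the calcium store and the energy supply of muscle fibres, matched by the gene name of the array probe. They comprised 14 genes of fast fibres, 6 genes of slow fibres and 19 genes that both fibre types use. Values were in the deposited table for 37 of the 39, out of 26154 gene names in that table, and each gene was represented by its brightest probe. All levels are log2 intensities after quantile normalisation, so that a step of 1 is a doubling. Since probes differ in brightness, the level of one gene does not say whether it was more abundant than another, and differences between probes of the same array were used only to compare arrays.

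Total RNA of single mice was hybridised to 26 1-colour arrays. Total ChREBP KO mice (n = 7) were Mlxipl-null and lacked both isoforms of ChREBP, the glucose-responsive transcription factor that Mlxipl encodes, in all tissues. ChREBPβ KO mice (n = 5) had lost exon 1b in all tissues by CRISPR/Cas9 editing and lacked the shorter isoform. The controls were WT mice of each line, called total-line WT (n = 7) and β-line WT (n = 7), and the methods call them littermates for the ChREBPβ line. The mice were C57BL6/J males as the study describes this experiment, whereas the labels give neither strain background nor sex, their ages are not given in the sources used here, and all had been fasted for 24 h and refed for 18 h with chow and water that held 20% glucose.

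Mlxipl, the targeted gene, was lower in both KO groups than in their WT on the brightest of its 3 probes, by 2.28 in total ChREBP KO (adjusted p = 1.9e-13, limma) and by 1.52 in ChREBPβ KO (adjusted p = 6.45e-07, limma), with no overlap of arrays in either line. A second probe was lower by 0.90 in total ChREBP KO (adjusted p = 2.34e-06, limma) and differed by -0.68 in ChREBPβ KO (adjusted p = 0.0596, limma), and the third differed by -0.13 and 0.04, neither of which passed, so that the ChREBPβ line passed on 1 of 3 probes. The share of spots well above background was 70.2% on the lowest array and 76.5% on the highest. Adipocyte genes, which define the labelled tissue, had a mean level between 15.50 and 16.28 on all arrays, with all 10 of 10 genes present. By group it was 15.50 to 16.01 in total-line WT, 16.10 to 16.28 in total ChREBP KO, 15.97 to 16.19 in β-line WT and 15.86 to 16.27 in ChREBPβ KO. For these genes total ChREBP KO lay above its WT without overlap, and all other pairs of groups overlapped. Lymphocyte genes had a mean level between 10.68 and 12.38 in total-line WT, 7.67 and 11.00 in total ChREBP KO, 6.96 and 7.88 in β-line WT and 6.91 and 8.62 in ChREBPβ KO. Total-line WT lay above both groups of the β line without overlap, and all other pairs of groups overlapped. The part of the lymphocyte genes in the results below was not tested.

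Muscle fibres differ in the myosin they contract with. Slow fibres use the heavy chain of Myh7, and fast fibres use those of Myh2, Myh1 or Myh4, in rising order of contraction speed. Each fibre type carries its own set of troponins and myosin light chains, while skeletal actin, titin and nebulin are common to both. The fast heavy chain genes lie side by side on chromosome 11.

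The upstream sequences of the 4 adult heavy chain genes are shown because these genes separate fast from slow muscle in the data. Each run is the 250 bases before the annotated start in RefSeq, build GRCm38.p6, and capitals mark E boxes (CANNTG, the same on both strands) and matches to the MEF2 motif on either strand.
Myh4, chr11:67237562-67237811, plus strand: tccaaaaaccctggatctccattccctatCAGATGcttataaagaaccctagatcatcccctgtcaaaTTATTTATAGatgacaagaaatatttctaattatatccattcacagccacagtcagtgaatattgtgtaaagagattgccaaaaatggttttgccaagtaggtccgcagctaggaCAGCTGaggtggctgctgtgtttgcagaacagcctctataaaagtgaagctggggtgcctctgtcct
Myh1, chr11:67199852-67200101, plus strand: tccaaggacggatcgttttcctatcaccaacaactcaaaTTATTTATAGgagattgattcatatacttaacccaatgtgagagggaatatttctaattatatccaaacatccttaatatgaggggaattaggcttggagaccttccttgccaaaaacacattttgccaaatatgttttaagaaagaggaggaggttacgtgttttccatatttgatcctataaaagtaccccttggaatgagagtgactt
Myh2, chr11:67170777-67171026, plus strand: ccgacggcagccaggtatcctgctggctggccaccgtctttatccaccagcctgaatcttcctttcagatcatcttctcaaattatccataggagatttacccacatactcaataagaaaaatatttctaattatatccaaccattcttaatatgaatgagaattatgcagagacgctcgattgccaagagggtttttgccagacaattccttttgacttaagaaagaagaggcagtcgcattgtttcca
Myh7, chr14:54994627-54994876, minus strand: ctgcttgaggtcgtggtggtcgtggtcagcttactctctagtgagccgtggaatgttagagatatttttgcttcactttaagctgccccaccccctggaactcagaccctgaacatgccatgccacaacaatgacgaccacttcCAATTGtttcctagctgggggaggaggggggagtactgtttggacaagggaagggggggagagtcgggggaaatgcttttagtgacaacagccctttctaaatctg
The windows of Myh4 and Myh1 each held 1 MEF2 match, whereas those of Myh2 and Myh7 held none. Myh7 had a second, overlapping window, chr14:54994550-54994799, which is not shown and held 2 E boxes and no MEF2 match. Of the 39 genes, 29 had such windows, 36 in all, and Tnnt3, Tnni2, Neb, Actn3, Tcap, Myoz1, Myot, Sln, Trdn and Myom2 had no entry. An E box was in 30 of the 36 windows and in 66.2% of all 32851 windows. A MEF2 match was in 5 of the 36 (Myh1, Myh4, Pvalb, Ttn and Xirp2) and in 2.92% of all windows. A match to the CArG box, whose run of A and T can overlap a MEF2 match, was in 6 of the 36, belonging to Acta1, Ldb3, Myh4, Myl3 and Myom1, and in 1.47% of all windows. These are letters in a window and not binding measurements.

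The muscle genes differed widely over the arrays. Of the 37 members, 26 (70.3%) spanned more than 5 log2 units over the 26 arrays, whereas 259 of all 26154 gene names (0.99%) did. The mean of the 37 members was between 6.26 and 11.22. Within groups it spanned 6.44 to 10.55 in total-line WT, 6.40 to 11.22 in total ChREBP KO, 6.26 to 10.17 in β-line WT and 6.54 to 10.82 in ChREBPβ KO. All 4 groups therefore held at least 1 array with little muscle signal and at least 1 with much. In tissue RNA, fewer muscle cells and less RNA per muscle cell cannot be told apart.

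**Figure D1:**
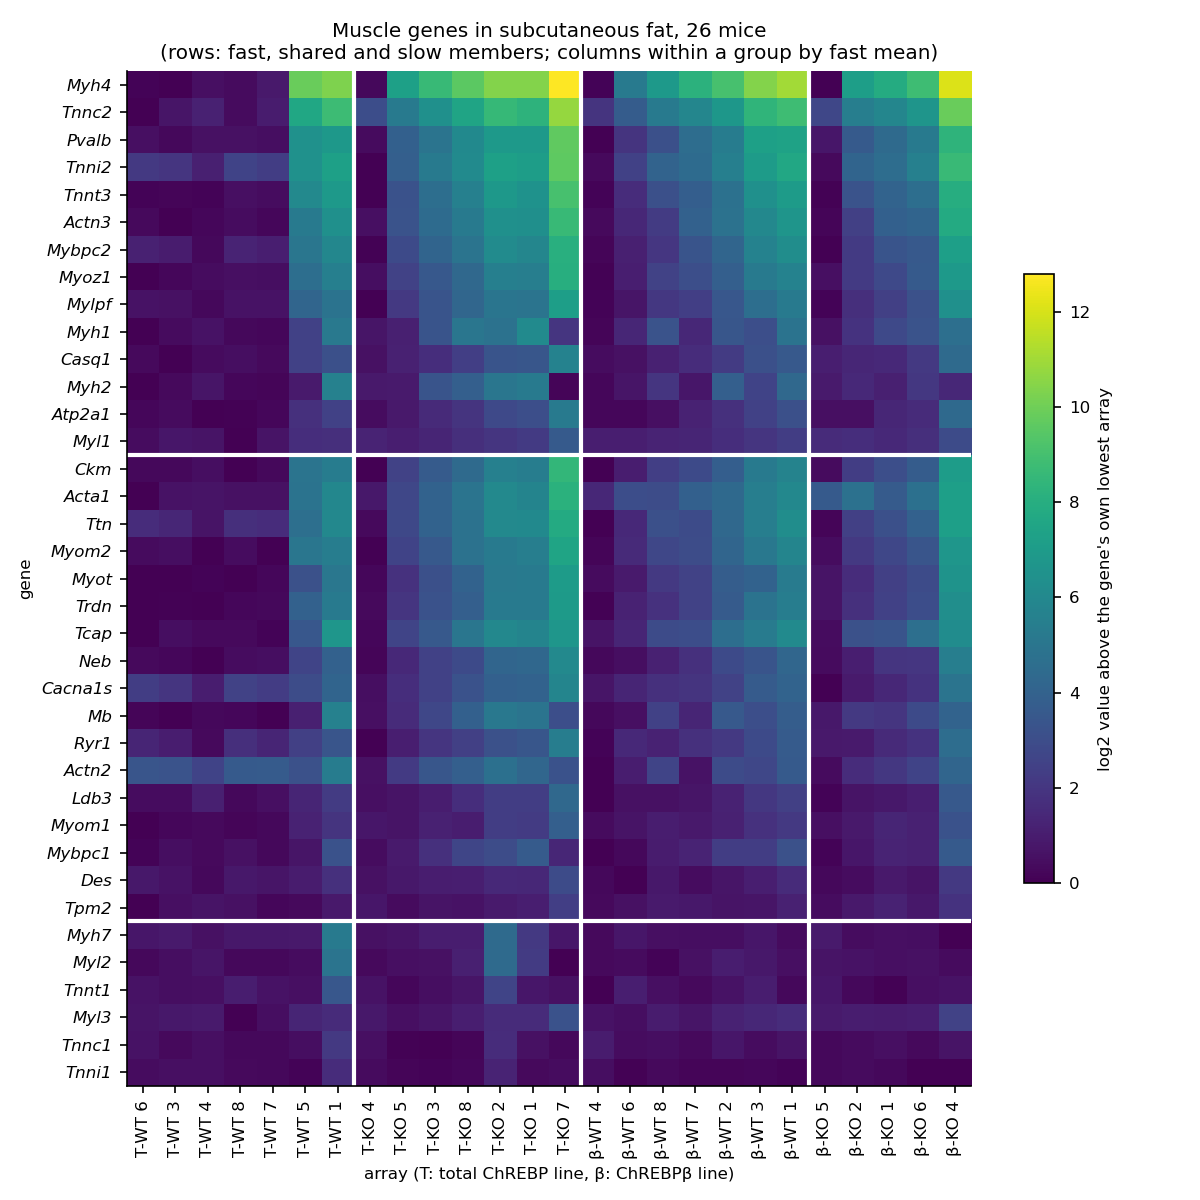
Level of each of 37 muscle genes (rows, grouped as fast, shared and slow from top to bottom) on each of 26 arrays (columns, 1 mouse each), in log2 units above the lowest array of that gene. Fast and shared genes are high on some arrays of all 4 groups, with Myh4 reaching 12.79 units above its lowest array, where it was not well above background, whereas slow genes other than Myl3 stand out on total-line WT replicate 1, and total ChREBP KO, replicate 2, and Myh7 and Myl2 to a smaller extent on total ChREBP KO, replicate 1.

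Fast genes carried the widest differences. Myh4, the heavy chain of the fastest fibres, was 4.42, 4.55, 4.80, 4.94, 5.28, 14.31 and 14.73 in the 7 total-line WT mice, 4.68, 11.71, 13.04, 13.99, 14.82, 14.83 and 17.21 in the 7 total ChREBP KO mice, 4.56, 9.71, 11.32, 12.62, 13.48, 14.82 and 15.43 in the 7 β-line WT mice and 4.45, 11.59, 12.27, 13.25 and 16.53 in the 5 ChREBPβ KO mice. On 8 arrays Myh4 was at 5.28 or below, and on the other 18 it was at 9.71 or above, with none between. Of these 8 arrays, 5 were total-line WT and each other group held 1. On 5 of the 8 arrays it was not well above background, so that its low values there are bounds.

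Myh1, the heavy chain of fibres of intermediate speed among the fast ones, was 5.73, 5.96, 5.98, 6.11, 6.35, 8.21 and 10.92 in total-line WT and 6.44, 6.87, 7.68, 9.04, 10.54, 10.73 and 11.83 in total ChREBP KO. It was 5.89, 7.12, 7.16, 8.81, 9.01, 9.14 and 10.59 in β-line WT and 6.28, 7.60, 8.57, 8.98 and 10.38 in ChREBPβ KO. The groups overlapped in both lines.

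Myh2, the heavy chain of fast oxidative fibres, was 5.70, 5.85, 5.92, 6.01, 6.43, 6.64 and 11.34 in total-line WT and 5.89, 6.57, 6.61, 9.02, 9.55, 10.73 and 10.96 in total ChREBP KO. It was 5.93, 6.40, 6.49, 7.69, 8.29, 9.57 and 10.04 in β-line WT and 6.64, 6.83, 7.12, 7.19 and 7.78 in ChREBPβ KO. In total-line WT the highest mouse had 11.34 and the next 6.64, and the groups overlapped in both lines.

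Tnnt3, the fast isoform of the troponin that anchors the complex to tropomyosin, was 7.09, 7.13, 7.18, 7.43, 7.51, 13.02 and 13.84 in total-line WT and 6.99, 10.23, 11.61, 12.56, 13.50, 13.80 and 16.05 in total ChREBP KO. It was 7.10, 8.63, 10.09, 10.79, 11.76, 13.43 and 13.99 in β-line WT and 7.07, 10.26, 11.04, 11.61 and 14.95 in ChREBPβ KO. Low and high arrays were those that were low and high for Myh4.

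The other fast members were Tnni2 and Tnnc2 (inhibitory and calcium-binding troponins), Mylpf and Myl1 (light chains), Pvalb (a calcium buffer), Atp2a1 (the calcium pump of the store), Casq1 (calcium storage), Actn3 and Myoz1 (proteins of the Z disc) and Mybpc2 (a myosin-binding protein). Tnnc2 ranged from 6.03 to 16.81 over the 26 arrays, Pvalb from 5.75 to 15.40, Tnni2 from 6.92 to 16.55 and Actn3 from 4.26 to 12.90. Myoz1 ranged from 4.58 to 12.60, Mybpc2 from 4.57 to 12.66, Mylpf from 6.48 to 13.67, Casq1 from 4.70 to 10.37 and Atp2a1 from 6.35 to 11.57. Myl1 had the narrowest span of the fast list, from 12.31 to 15.94, and was bright on every array. The mean of the 14 fast members ran from 6.44 to 13.24, a range of 6.80.

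Among members used by both fibre types, Acta1, which encodes skeletal actin, was 6.71, 7.27, 7.30, 7.34, 7.38, 11.56 and 12.63 in total-line WT and 7.52, 9.43, 10.71, 11.61, 12.49, 12.71 and 14.86 in total ChREBP KO. It was 8.11, 9.67, 9.75, 10.62, 11.10, 12.16 and 12.70 in β-line WT and 10.32, 10.36, 11.44, 11.49 and 13.91 in ChREBPβ KO. The ChREBPβ KO mouse with 10.32, replicate 5, had Myh4 at 4.45, whereas the β-line WT mouse with the lowest Acta1, replicate 4, had 8.11 with Myh4 at 4.56.

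The remaining shared members had ranges between 2.36 for Tpm2, a tropomyosin that smooth muscle also makes, and 8.45 for Ckm, the muscle creatine kinase. Ttn and Neb, the giant filament proteins, spanned 7.81 and 6.02. Mb, the oxygen-binding protein, spanned 5.61, and Des, the intermediate filament of all muscle types, spanned 2.93. Tcap, Myot and Ldb3, which sit at the Z disc, spanned 6.75, 7.03 and 4.31. Trdn, Ryr1 and Cacna1s, which couple excitation to calcium release, spanned 6.96, 5.40 and 5.81. Myom1 and Myom2 of the M band spanned 3.88 and 7.45, Mybpc1, a myosin-binding protein, 3.65, and Actn2 of the Z disc 5.37. In total 12 of these 17 shared members and 13 of the 14 fast members spanned more than 5 units.

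Slow genes other than Myl3 were high on few arrays. Myh7, the slow heavy chain, was 5.61, 5.84, 5.85, 5.86, 5.90, 5.99 and 10.30 in total-line WT and 5.60, 5.73, 5.82, 6.08, 6.09, 7.18 and 9.49 in total ChREBP KO. It was 5.39, 5.44, 5.51, 5.54, 5.57, 5.81 and 5.84 in β-line WT and 5.05, 5.48, 5.51, 5.56 and 5.97 in ChREBPβ KO. Only 3 of the 26 arrays exceeded 6.09, all of them from the total line, with WT replicate 1 highest, then total ChREBP KO replicate 2 and replicate 1.

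Tnnt1, the slow counterpart of Tnnt3, was 7.41, 7.46, 7.47, 7.54, 7.55, 7.98 and 10.39 in total-line WT and 7.14, 7.43, 7.50, 7.54, 7.67, 7.69 and 9.55 in total ChREBP KO. It was 6.94, 7.20, 7.27, 7.45, 7.54, 7.96 and 8.0 in β-line WT and 7.02, 7.19, 7.44, 7.58 and 7.71 in ChREBPβ KO. The arrays with 10.39 and 9.55 were the same WT replicate 1 and total ChREBP KO replicate 2.

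Myl2, the slow regulatory light chain, reached 10.11 and 9.62 on these arrays, against a median of 5.75 over all. Tnni1 and Tnnc1, the slow inhibitory and calcium-binding troponins, reached 8.75 and 7.15 on WT replicate 1 and 8.41 and 6.64 on total ChREBP KO replicate 2, against medians of 7.44 and 5.48. Csrp3 and Ankrd2 are stretch-responsive genes of slow and cardiac muscle and no members, and were picked after their values were seen. Both were also highest on WT replicate 1 (8.84 and 8.82) and total ChREBP KO replicate 2 (7.82 and 8.25). Atp2a2 and Tpm3, also no members and picked in the same way, did not stand out on these arrays. Atp2a2 was 10.94 and 11.21 there and up to 11.40 elsewhere, and Tpm3 was 15.14 and 14.63 there and up to 15.23 elsewhere.

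The 6 slow genes had a mean between 6.91 and 9.69, a range of 2.79. Across the 26 arrays the slow mean rose by 0.13 (SE 0.05) for each unit of the fast mean, and without total-line WT replicate 1 by 0.09. Slopes of single members on the mean of the other fast genes were between 0.27 for Myl1 and 2.06 for Myh4 in the fast list (median 1.06), between 0.15 and 1.08 in the shared list (median 0.69) and between 0.01 for Tnni1 and 0.24 for Myl3 in the slow list (median 0.14). These slopes describe points that share an array, a scan and a normalisation.

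**Figure D2:**
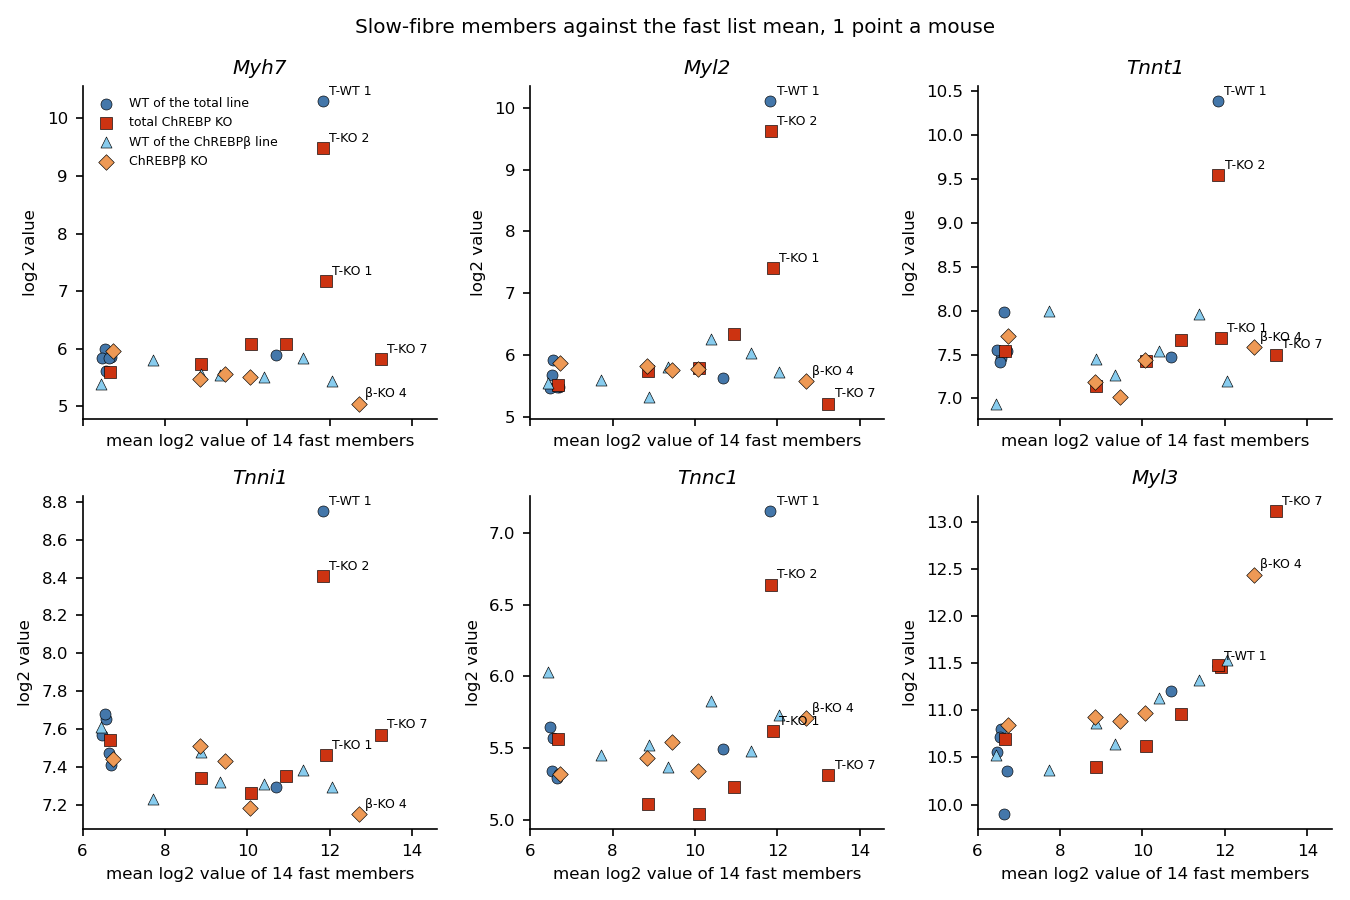
Level of each slow member (y axis, log2) against the mean level of the 14 fast members (x axis, log2), 1 point per mouse with colour and shape for the group. Myh7, Myl2, Tnnt1, Tnni1 and Tnnc1 are high on total-line WT replicate 1 and total ChREBP KO replicate 2 and at or below 7.58 on the arrays with the highest fast means of 12.70 and 13.24, whereas Myl3 is highest there.

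The 3 arrays with the highest fast means were not those with slow signal, although the 3 arrays with the highest slow means came next in the order of fast means. Total ChREBP KO replicate 7, with the highest fast mean of 13.24, had Myh4 at 17.21 and Myh7 at 5.82, and its Myh2 of 5.89 and Myh1 of 7.68 were far below those of replicate 1 of the same group, with 10.96 and 11.83. ChREBPβ KO replicate 4, with a fast mean of 12.70, had Myh4 at 16.53, Myh1 at 10.38, Myh2 at 7.12 and Myh7 at 5.05. β-line WT replicate 1, with a fast mean of 12.05, had high Myh1 and Myh2, at 10.59 and 10.04, and low Myh7, at 5.44. Total-line WT replicate 1, with a fast mean of 11.83, had all 4 high. The muscle-rich arrays thus differed in which heavy chains were high, and not only in the total of muscle signal.

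**Figure D3:**
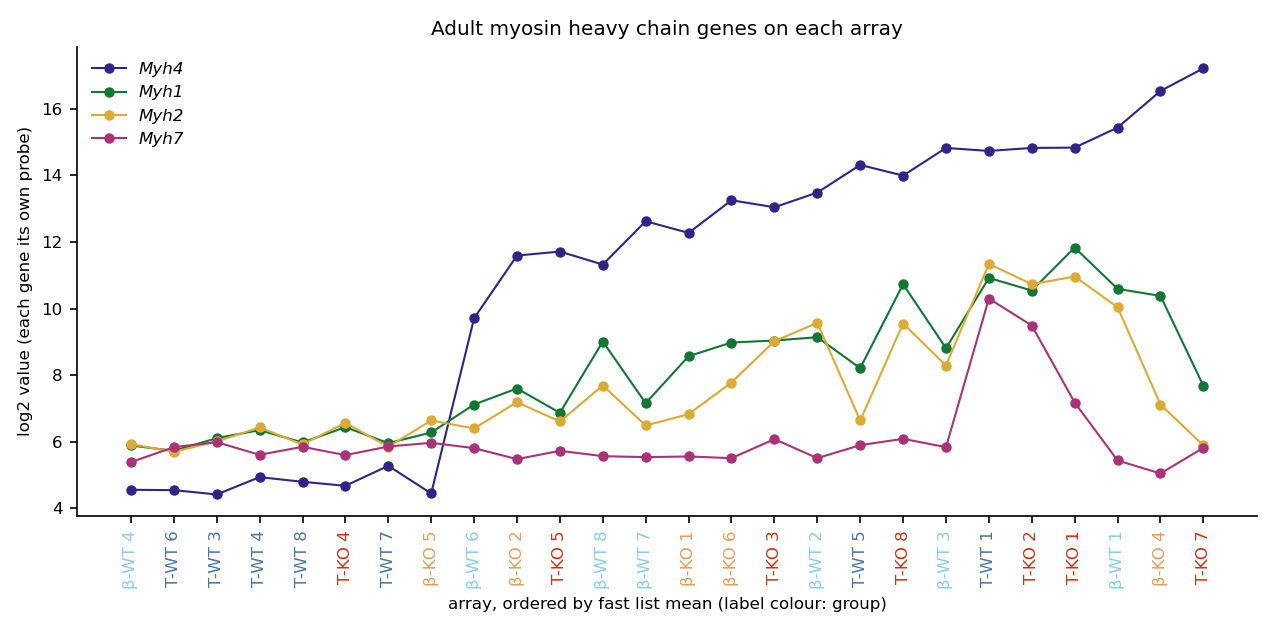
Levels of Myh4, Myh1, Myh2 and Myh7 (y axis, log2, each on its own probe, so heights of different genes are not comparable) on the 26 arrays, ordered from the lowest to the highest mean of the 14 fast members, with label colour for the group. Myh4 is at or below 5.28 on the first 8 arrays and reaches 17.21 on the last, where Myh1 and Myh2 are only 7.68 and 5.89, and Myh7 stands out on 3 arrays with 10.30, 9.49 and 7.18.

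Mb and Mybpc1 were compared on the array richest in Myh4 and the arrays with slow signal. Mb was lower on the former, with 7.83 on total ChREBP KO replicate 7 against 10.36 on total-line WT replicate 1 and 9.86 on total ChREBP KO replicate 2. Mybpc1 showed the same order, with 7.12, 8.97 and 8.76. ChREBPβ KO replicate 4, second in Myh4, did not follow this for Mybpc1, with 9.40 against a highest value of 9.42 over all arrays, and had Mb at 8.84. Mybpc2, its fast relative, had the reverse order, with 12.66, 10.48 and 10.74.

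Within-array differences between a fast gene and its slow partner were compared among arrays. Tnnt3 minus Tnnt1 ran from -0.64 to 8.54, Tnni2 minus Tnni1 from -0.63 to 8.98 and Tnnc2 minus Tnnc1 from 0.38 to 11.50. Mylpf minus Myl2 ran from 0.75 to 8.45. Myh4 minus Myh7 reached 11.48, and its low end is a bound, since both probes were well above background on only 21 arrays. Tnnt3 minus Tnnt1 averaged 1.05 ± 2.43 (SD, n = 7) among total-line WT mice and 4.32 ± 2.76 (SD, n = 7) among their KO mice. It averaged 3.35 ± 2.42 (SD, n = 7) among β-line WT mice and 3.60 ± 2.87 (SD, n = 5) among theirs. These group means were not tested against each other.

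Myl1 minus Myl3 was the exception, with a range of 0.96 (from 2.16 to 3.12). Myl3, the essential light chain of slow fibres and heart, was highest on the arrays richest in fast muscle, 13.11 on total ChREBP KO replicate 7 and 12.44 on ChREBPβ KO replicate 4, and 11.47 on total-line WT replicate 1. The Myl3 probe shares a run with 1 of the Myl1 probes in the table, and this run is shown because it touches what the Myl3 value measures. That Myl1 probe is not the one that gave the Myl1 values here, which shares a run of only 5 bases with the Myl3 probe.
Myl3 and Myl1 probes, 18 shared bases: CTGCATCAACTATGAAGC
How much Myl1 RNA binds the Myl3 probe was not tested. Myh8, the neonatal heavy chain and no member, ranged from 5.89 to 17.12 and was highest on total ChREBP KO replicate 7, as Myh4 was. Its probe shares a run with the Myh1 probe, and Myh1 was 7.68 on that array. How much RNA of other heavy chains binds the Myh8 probe was not tested.
Myh8 and Myh1 probes, 19 shared bases: GAGGTTCACACCAAAATCA
The other partner probes among the myosin, troponin, actinin and myosin-binding genes shared runs of 12 bases or fewer.

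Some members were not low on every array with low Myh4, and the arrays named here were picked after their values were seen. Actn2 was 8.14, 7.43, 8.23, 8.52 and 8.49 on total-line WT replicates 3, 4, 6, 7 and 8, where Myh4 was at or below 5.28, but 5.44, 4.87 and 5.26 on total ChREBP KO replicate 4, β-line WT replicate 4 and ChREBPβ KO replicate 5, where Myh4 was also low. The mean of the 12 lymphocyte genes was 11.79, 10.68, 12.17, 12.13 and 12.38 on the former arrays and 8.33, 7.01 and 7.18 on the latter. Tnni2 was between 8.03 and 9.47 on those 5 arrays and between 6.92 and 7.26 on the other 3. Cacna1s had the same order, with 7.24 to 8.72 against 6.21 to 6.91, and Ttn, with 5.0 to 6.06 against 4.33 to 4.66. Mylpf and Mybpc2 also lay higher on the 5 arrays without overlap. Other members ran the opposite way, with Tnnc2 at 6.03 to 7.22 on the 5 arrays against 7.96 to 9.06 on the other 3, Myl1 at 12.31 to 13.08 against 13.39 to 13.89, Acta1 at 6.71 to 7.38 against 7.52 to 10.32 and Myom1 at 6.44 to 6.75 against 6.83 to 7.20. The remaining members overlapped. The part of the lymphocyte signal in these levels was not tested. The second Actn2 probe ranged from 4.27 to 7.74 and was well above background on 20 arrays, against 26 for the one used.

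**Figure D4:**
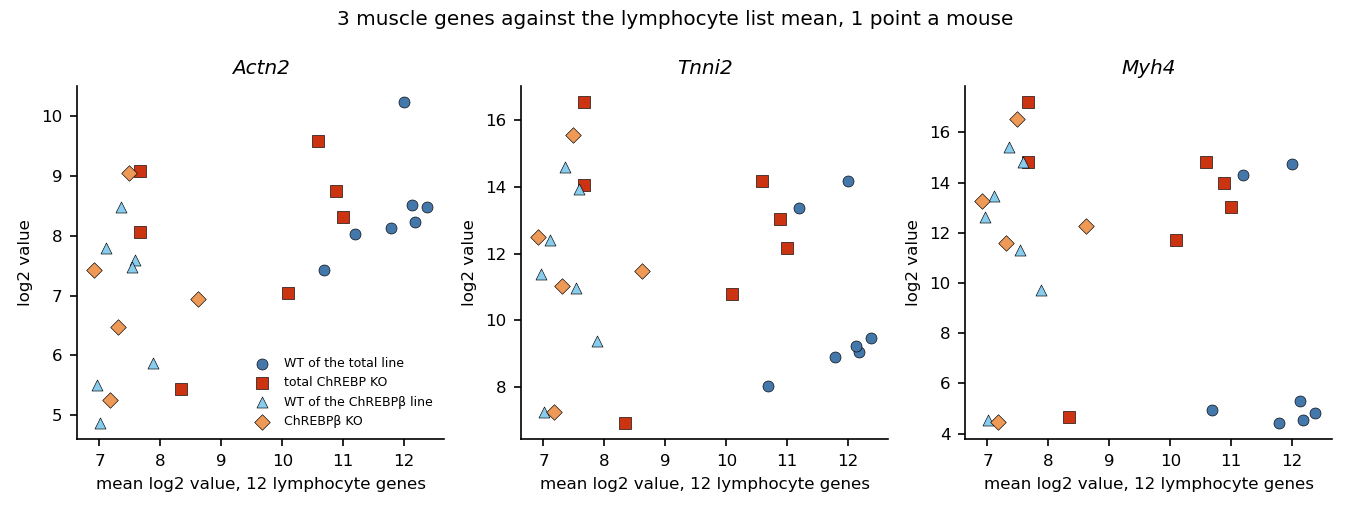
Level of Actn2, Tnni2 and Myh4 (y axes, log2) against the mean level of 12 lymphocyte genes (x axis, log2), 1 point per mouse with colour and shape for the group. Among mice with Myh4 at or below 5.28, Actn2 is 7.43 to 8.52 where the lymphocyte mean is 10.68 to 12.38 and 4.87 to 5.44 where it is 7.01 to 8.33.

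Sln, a small regulator of the calcium pump, and Xirp2, a protein of fibre ends, were not in the deposited table, and their spot intensities are given on the linear scale of the scanner. The Sln probe was well above background on 12 of 26 arrays and reached 193 on total-line WT replicate 1, with medians by group between 20 and 29. The Xirp2 probe was well above background on 14 of 26 arrays, with medians of 21 in total-line WT, 62 in total ChREBP KO, 34 in β-line WT and 35 in ChREBPβ KO, and a highest value of 145. Of the 37 members in the table, 27 were well above background on all arrays and 10 on some. The 10 were Myh4, Ckm, Mb, Ttn, Actn3, Mybpc2, Myoz1, Myot, Trdn and Myom2, and 51 of 962 values were not well above background, so that their spans are limited from below by the background of the array.

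Total ChREBP KO was compared with its WT to see whether the loss of both isoforms went along with a change in muscle genes. Of 37 members, 7 were called at an adjusted p under 0.05, all higher in KO, and 20 had an unadjusted p under 0.05. Among all 40168 probes, 45.5% were called in this comparison, and 25.9% were called higher in KO, so that 18.9% of members called was below the background. At least 45.5% of all probes also had an unadjusted p under 0.05, since the adjustment only raises p-values. The count of members with an unadjusted p under 0.05 is therefore no result about the members. The median difference was 1.93 over the members, 2.28 over the 14 fast genes, 1.93 over the 17 shared genes and -0.02 over the 6 slow genes, against 0.05 over all probes. The 7 were 3 fast genes (Myh4, Tnnc2 and Myl1) and 4 shared genes (Acta1, Mb, Myot and Myom1). None of the 6 slow genes was called by limma, and none had an unadjusted p under 0.05.

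On its brightest probe, Myh4 was higher in total ChREBP KO by 5.32 (95% interval 0.96 to 9.68, adjusted p = 0.0426, limma). This was the largest difference of the members, followed by Tnnc2 with 4.29 (1.32 to 7.27, adjusted p = 0.0176, limma). Myh4 differed by only 1.24 over the median of all its probes (adjusted p = 0.0658, limma) and was then not called. The other Myh4 probes spanned less over the arrays than the brightest one. Acta1 was higher by 2.74 (0.62 to 4.85, adjusted p = 0.0323, limma), Myot by 2.58 (0.42 to 4.73, adjusted p = 0.0466, limma) and Mb by 2.05 (0.34 to 3.76, adjusted p = 0.0463, limma). Myom1 was higher by 1.14 (0.21 to 2.07, adjusted p = 0.0426, limma) and Myl1 by 1.02 (0.33 to 1.71, adjusted p = 0.0148, limma). The arrays of both groups overlapped for all 7.

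Tnnt3 differed by 3.08 (0.18 to 5.98, adjusted p = 0.0766, limma), Myh1 by 1.98 (0.11 to 3.86, adjusted p = 0.0773, limma) and Myh2 by 1.64 (-0.17 to 3.44, adjusted p = 0.13, limma), none of which passed. Over the median of all its probes Tnnt3 differed by 3.9 (adjusted p = 0.0472, limma) and was called. Myh7 differed by 0.09 (-1.10 to 1.28), Tnnt1 by -0.18 (-0.95 to 0.58) and Tnni1 by -0.13 (-0.48 to 0.23), with adjusted p of 0.913, 0.714 and 0.583 in limma. Lymphocyte genes were called lower in KO in 12 of 12 cases, and of 10 adipocyte genes 8 were called higher and 1 lower. Their part in the difference of the muscle genes was not tested.

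The number of members called hung on single mice. It was 23 without WT replicate 1, 22 without KO replicate 4, 15 without WT replicate 5, 13 without KO replicate 5, 4 without KO replicate 3, and 2 without KO replicates 1, 2 or 7 or WT replicates 3, 4, 6, 7 or 8, each left out alone. Tnnc2 and Myl1 were called in all 14 of these fits and under all 9 other settings with a test, Acta1 in 6 of 14 and 7 of 9, and Myh4 in 4 of 14 and 5 of 9. Myom1 was called in 6 of 14, Myot in 4 of 14 and Mb in 3 of 14, each in 6 of 9 other settings, with adjusted p in limma of up to 0.123, 0.118 and 0.105. Within wash batches, the median difference over the members was 3.53 in batch 1, 2.06 in batch 2, 0.07 in batch 3 and 2.91 in batch 4, each with 1 or 2 mice of a group, and 16 members were called with the wash batch as a block.

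**Figure D5:**
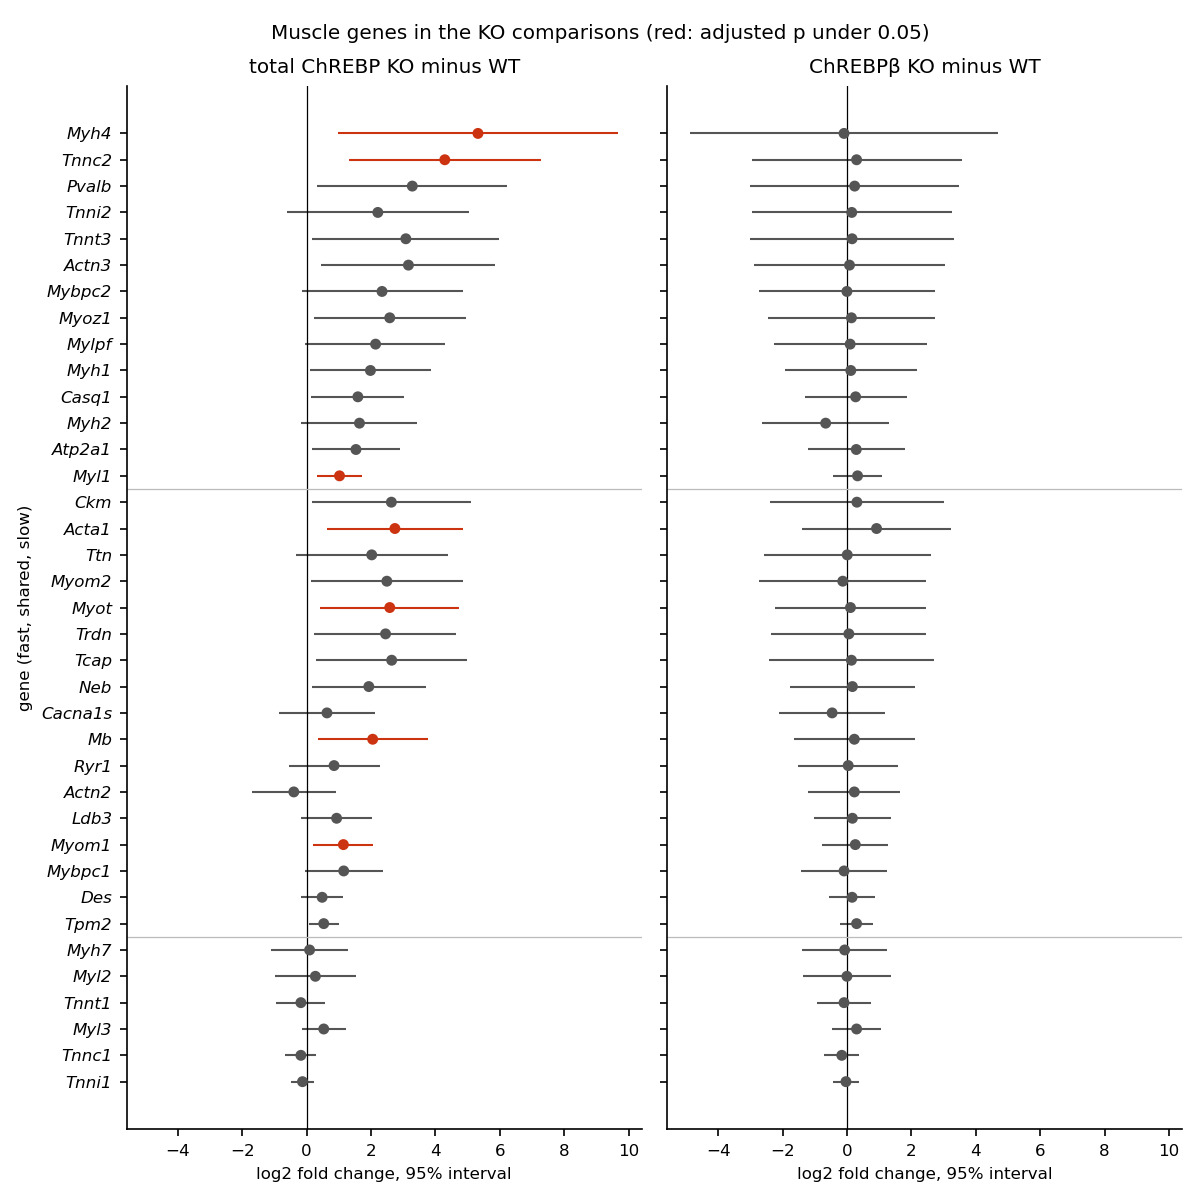
Log2 fold change of each of 37 muscle genes with its 95% interval from limma (x axis), for total ChREBP KO minus WT (left) and ChREBPβ KO minus WT (right), with fast, shared and slow genes from top to bottom and genes with an adjusted p under 0.05 in red. On the left 7 genes are red, from 1.02 for Myl1 to 5.32 for Myh4, and slow genes lie near 0, whereas on the right no gene is red and the interval of Myh4 runs from -4.86 to 4.68.

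ChREBPβ KO was compared with its WT for the shorter isoform alone. None of 37 members was called by limma, none had an unadjusted p under 0.05, and 0.0373% of all probes were called. The median difference was 0.14 over the members and 0.00 over all probes. The largest difference was that of Acta1, 0.92 (95% interval -1.40 to 3.24, adjusted p = 0.936, limma), which was 0.31 without KO replicate 4 and 1.27 without WT replicate 1, followed by Myh2 with -0.66 (-2.64 to 1.31, adjusted p = 0.953, limma). Myh4 differed by -0.09 (-4.86 to 4.68), Myh1 by 0.12 (-1.93 to 2.17), Tnnt3 by 0.16 (-3.01 to 3.34), Myh7 by -0.07 (-1.38 to 1.24) and Tnnt1 by -0.09 (-0.93 to 0.75), with adjusted p between 0.993 and 0.998 in limma. Mybpc2 and Myl2 differed least, both by 0.00, with intervals of -2.74 to 2.74 and -1.37 to 1.38. The width of the intervals differed among fast genes, from -0.42 to 1.09 for Myl1 to the interval of Myh4 above. Within wash batches the median over the members was 1.63 in batch 1 and 2.03 in batch 3, each with 2 KO mice and 1 WT mouse. It was -1.60 in batch 4, with 1 KO mouse and 3 WT mice. Its sign was thus not the same in all of them, with 1 mouse on a side in each, and batch 2 held no KO mouse.

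The difference between both KO effects was tested as an interaction. None of 37 members was called by limma or had an unadjusted p under 0.05, whereas 22.5% of all probes were called. Values were -5.41 for Myh4 (95% interval -11.87 to 1.05, adjusted p = 0.228, limma) and -4.00 for Tnnc2 (-8.41 to 0.42, adjusted p = 0.19, limma), the largest, where a negative value is a smaller KO effect in the ChREBPβ line. Myh2 gave -2.30, Tnnt3 -2.92, Myh1 -1.87, Acta1 -1.82 and Myh7 -0.16, with adjusted p between 0.214 and 0.918 in limma. Tnnc1 gave 0.02, and Tnni1 and Tnnt1 both gave 0.09, with adjusted p of 0.978, 0.836 and 0.926 in limma. The KO effect on these genes was therefore not shown to differ between both lines. Without total-line WT replicate 1, 1 member was called.

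β-line WT was compared with total-line WT as a measure of differences between lines. Among all probes 45.3% were called in either direction and 19.8% were called lower in β-line WT, against 1 of 37 members (2.70%), while 2 members had an unadjusted p under 0.05. Actn2 was lower in β-line WT by 1.64 (95% interval -2.94 to -0.33, adjusted p = 0.0378, limma), with 7.43 to 10.24 in total-line WT against 4.87 to 8.48. Over all its probes it differed by -1.07 (adjusted p = 0.113, limma) and was not called. All 12 lymphocyte genes were called lower in the same comparison. Myh4 differed by 4.13 (-0.23 to 8.49, adjusted p = 0.116, limma) and Tnnc2 by 3.00 (0.02 to 5.98, adjusted p = 0.0939, limma), the largest, and Acta1 by 1.99, Tnnt3 by 1.80, Myh1 by 1.21, Myh2 by 0.93, Tnnt1 by -0.49 and Myh7 by -0.89, with adjusted p between 0.119 and 0.409 in limma. Within wash batches the median over the members was -0.15 in batch 1, 0.69 in batch 2, 0.25 in batch 3 and 1.93 in batch 4. Batch 1 held 1 mouse of each WT group, and the others held 1 to 3 of each. Des and Tnnc1 differed least, by -0.15 and -0.06, with adjusted p of 0.724 and 0.87 in limma. The count was 6 without total-line WT replicate 1 and 3 without its replicate 5, 2 without β-line WT replicate 4, and 0 without β-line WT replicate 6 or 7 or replicates 7 or 8 of the total line.

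Muscle genes outside the members were taken from fixed lists. Of 28 further genes of the sarcomere and the triad, 22 were in the table, and in total ChREBP KO 7 were called higher and 1 lower, where 25.9% of all probes were called higher and 45.5% in either direction. Their mean level ran from 7.12 to 8.95, and Trim54 and Trim63, ubiquitin ligases of muscle, differed most over arrays, by 5.37 and 5.05. Of 10 muscle energy genes, 4 were called higher and none lower by limma in total ChREBP KO. Their mean ran from 7.83 to 12.04, with Pgam2, a muscle enzyme of glycolysis, and Cox6a2, a muscle subunit of cytochrome oxidase, differing most, by 7.74 and 7.0. In ChREBPβ KO 0 genes of both lists were called by limma. Myogenic regulators and satellite cell genes were in the table for 4 of 8, 2 of them were called higher in total ChREBP KO, and Myf6, the regulator of mature fibres, ranged from 4.16 to 8.05.

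Genes of neighbouring tissues were set beside the muscle genes by their levels. The mean of cardiac genes ran from 5.72 to 6.01, with Tnnt2 and Tnni3 differing most, by 1.44 and 1.28, and that of smooth muscle genes from 9.85 to 10.78, with Acta2 and Cnn1 differing most, by 2.83 and 1.81. The mean of neuromuscular junction genes ran from 6.51 to 7.16, with Rapsn and Dok7 differing most, by 1.36 and 1.17, and that of tendon genes from 6.16 to 7.07, with Comp and Thbs4 differing most, by 2.28 and 2.26. Skin epithelium genes ran from 6.13 to 7.22, with Krt14 and Krt5 differing most, by 2.55 and 1.94 and both highest on total ChREBP KO replicate 7, the array with the highest Myh4. Schwann cell genes ran from 10.55 to 12.73, and Prx differed by 3.35 and was highest on β-line WT replicate 1. Among adipocyte genes Lep and Cidec differed most, by 1.91 and 1.79, and among lymphocyte genes Ms4a1 and Ccr7, by 7.61 and 7.35. Among embryonic and neonatal muscle genes, whose mean ran from 8.10 to 12.59, Myh8 and Myl4 differed most, by 11.23 and 2.72.

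The genes closest to the members over the 26 arrays were searched among 17660 other genes with a symbol, by the root mean square distance from the mean of the members after centring both. The 10 closest were Prr33 and Mylk2 (distance 0.41 each), Trim54 (0.44), Rbfox1 and Ckmt2 (0.45 each), Pygm (0.49), Klhl31 and Jsrp1 (0.50 each) and Rpl3l and Hrc (0.54 each). The distance of the members themselves from their mean was between 0.35 and 2.97. Mylk2, Trim54, Ckmt2 and Pygm had been listed among muscle genes, and the other 6 had not. Their ranges over the arrays were between 4.62 for Jsrp1 and 6.29 for Ckmt2.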

How the data were processed

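The authors scanned 1-colour mouse arrays and extracted spot intensity values with Agilent Feature Extraction 10.10.1.1. From the median intensity they made the deposited log2 table by a spot quality filter, quantile normalisation and the median of replicate spots. It holds 40168 probes, which correlated with their own log2 median intensity at r of 0.9993 or above, with column medians between 7.76 and 7.77. Values were used from this table, and scanner files gave gene names, probe sequences and deposited quality calls, which are other values of 0 or 1. Promoters are those of RefSeq, build GRCm38.p6. The array number limits precision, and depth does not apply.

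Group means over the 26 arrays were estimated by limma 3.58.1 (lmFit, then eBayes; R 4.3.3, 22 residual degrees of freedom), p-values were adjusted by Benjamini-Hochberg over all probes, and adjusted p under 0.05 was called. Mice are separate animals, 1 array each. On simulated data 96 of 100 changes of 1 and 98 of 100 changes of 2 were recovered in total KO against WT over 40168 probes, with 17 false calls. The changed probes were drawn at random from all probes, each with independent noise of its own spread. The muscle genes spread widely, with a standard error of 2.12 for Myh4 in this comparison, so these counts do not give the recovery for them. Named were all members, with single values for 7, and tests for these 7, the 2 largest and 2 smallest changes and all calls up to 15, the 2 widest genes of each marker list (2 of these genes are not reported here) and the 10 closest genes. Further single values of members and of Csrp3, Ankrd2, Atp2a2 and Tpm3 were picked after they were seen. Members and lists were chosen with earlier results of these data known. Alternatives were the recomputed table, other scaling and background correction, dim probes left out, all probes of a gene, blocks for replicate, wash batch and slide, the compared groups alone and single arrays left out.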

Additional observations from a re-analysis of the deposited data

Results flagged for a closer look

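Each level of a member, each list mean and each difference between partners was tested within each group for a single mouse that stood apart by Dixon's criterion. Of 200 such groups of values 27 had one, where chance gives about 1 in 20, or 10, and the genes share the same mice, so that these are few independent events.

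Total-line WT replicate 1 was the highest of 7 for Myh2 (11.34), Myh7 (10.30), Myl2 (10.11), Tnnt1 (10.39), Tnni1 (8.75), Tnnc1 (7.15), Mb (10.36), Actn2 (10.24), Mybpc1 (8.97) and the slow mean (9.69), where the next mouse had 7.17. Total ChREBP KO replicate 2 was the highest of 7 for Myh7 (9.49), Tnnt1 (9.55), Tnni1 (8.41), Tnnc1 (6.64) and the slow mean (9.20), where the next had 7.80.

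Total ChREBP KO replicate 7 was the highest of 7 for Myl1 (15.94), Myl3 (13.11), Tpm2 (12.20), Des (10.17) and Actn3 minus Actn2 (4.83). ChREBPβ KO replicate 4 was the highest of 5 for Myl1 (15.23), Myl3 (12.44), Atp2a1 (10.71), Ryr1 (9.90) and Ldb3 (9.40). Total-line WT replicate 5 was the highest of 7 for Mylpf minus Myl2 (5.0) and Myh1 minus Myh7 (2.31). No member had a KO effect that differed between both lines by the interaction term in limma, also at an unadjusted p under 0.05.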

How the results depend on the processing

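The range of the fast mean (6.26 to 6.80 with 1 array left out), the range of the slow mean (2.29 to 2.79) and the slope of the slow on the fast mean (0.09 to 0.15) moved by less than their spread under all settings other than leaving out an array. The 7 members called in total ChREBP KO became 2 with a replicate block, 16 with the wash batch as a block and 2 with the compared groups alone, and 2 to 23 with 1 array left out. Actn2, the 1 called between WT groups, was not called over all its probes (-1.07, adjusted p = 0.113, limma), where another member was, and the count became 2 with the 75th percentile scaling and 0 to 6 with 1 array left out. The interaction gave 0 to 1 and ChREBPβ KO 0 to 0. Replicate numbers were not treated as pairs in the main fit. Deviations of mice with the same number correlated between -0.36 and 0.51. Mice with unlike numbers were not set beside them, so these values cannot tell whether the numbers pair mice.

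In the fits with a test, directions turned only for small differences. Within wash batches a turn was counted only for members called in the main fit, and Myh4 in total ChREBP KO turned in batch 3 (-0.10, no test). Turns of members not called were not counted there. The median over the members was below 0 in batch 4 for ChREBPβ KO (-1.60) and in batch 1 between WT groups (-0.15). In total ChREBP KO, Myh7 gave -0.02 with the 75th percentile scaling and -0.07 with the replicate block, and Tnnt1 0.01 with the wash batch. With 1 array left out Myh7 gave -0.40 to 0.73, Tnnt1 -0.48 to 0.22 and Tnni1 -0.27 to 0.05. In ChREBPβ KO, Mybpc2 gave 0.01 with normexp, 0.22 with the replicate block, 0.55 with the wash batch, 0.01 with the slide and -0.99 to 0.81 with 1 array left out. Myl2 gave 0.00 with normexp, -0.26 with the replicate block and -0.07 to 0.09 with 1 array left out. Myh4 gave 0.02 over all its probes, 0.07 with the replicate block, 0.57 with the wash batch and -1.32 to 1.70 with 1 array left out. Myh7 gave 0.47 and Tnnt1 0.32 with the wash batch, and with 1 array left out -0.18 to 0.05 and -0.18 to 0.00, Myh1 -0.39 to 0.64 and Tnnt3 -0.83 to 1.14. In the interaction, Tnnc1 gave -0.05 with the replicate block and Myh7 0.14 with the wash batch, and with 1 array left out Myh7 gave -0.80 to 0.33, Tnnt1 -0.31 to 0.39, Tnnc1 -0.22 to 0.21 and Tnni1 -0.09 to 0.23. Between WT groups Tnnc1 gave -0.12 to 0.19. The cause was not tested. The interaction already uses all groups, and no within-batch value was set for it.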
